A study of Mus musculus with 18 samples.

Results

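Choline kinase was inhibited in naïve bone marrow-derived macrophages (BMDM) with RSM-932a (RSM), and the transcriptome was compared with that of vehicle-treated cells (Veh). The members are the 3 RSM M[0] and the 3 Veh M[0] libraries, which are 6 of 18 in the series, described over 14979 of 55385 listed genes, those reaching 10 counts in 2 or more of the 18 libraries. The question was how the transcripts of resting macrophages change when the phosphorylation of choline, rather than its uptake, is inhibited. All cells came from bone marrow of female C57BL/6J mice aged 12 weeks, with 3 individual mice behind each group, were grown in L-929 conditioned medium and were harvested on day 7. They received 5 µM RSM or 0.1% DMSO for 24 h and were then kept for 24 h more without a polarizing cytokine (M[0]). The other groups used here for comparison were M[0] cells given 250 µM hemicholinium-3 (HC3), an inhibitor of choline uptake, and RSM or Veh cells polarized with 20 ng/mL IL-4 in the second period (M[IL-4]). RSM was sequenced at 1 dose and 1 time, no genetic loss of choline kinase was part of the sequencing, and the cells are a culture derived in vitro and not a tissue population.

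Choline enters cells through transporters of the CTL family (Slc44a1, Slc44a2) and Flvcr1. Choline kinase alpha and beta (*Chka*, *Chkb*) phosphorylate it, the enzyme CCT (*Pcyt1a*, *Pcyt1b*) makes CDP-choline, and *Chpt1* or *Cept1* join this to diacylglycerol to give phosphatidylcholine, the main phospholipid of most mammalian membranes. Several kinds of stress, among them amino acid shortage and mitochondrial or endoplasmic reticulum (ER) dysfunction, lead to phosphorylation of eIF2α and translation of ATF4, and ATF4 with its partners raises genes of amino acid synthesis, uptake and tRNA charging. This program is the integrated stress response. Macrophages present peptides on MHC class II, handle large lipid loads and secrete proteases, cytokines and growth factors.

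Total counts were 17457796 to 18814580 in the 6 libraries, so 3 counts in 1 library were 0.154 to 0.176 CPM. Expression is given as CPM, the usual count relative to library depth, scaled by edgeR's TMM factors, one value per library in the order of replicates 1, 2 and 3. Differences are log2 fold changes from edgeR's quasi-likelihood fit over all 18 libraries, and a gene was called when the Benjamini-Hochberg FDR was under 0.05 and the change was at least 2-fold. With 3 libraries a side an exact permutation test of 1 gene cannot go below p = 0.1. The first principal component of the 6 libraries held 68.2% of their variance and separated RSM from Veh, and the second, with 11.7%, set replicate 2 of both groups apart. As a check of the label, *Csf1r* (the CSF-1 receptor), *Adgre1* (F4/80), *Cd68* and *Lyz2* were among the abundant macrophage transcripts in both groups, with *Csf1r* at 3888, 4007 and 4005 CPM in Veh, while *Ly6g*, *S100a9*, *Ms4a1*, *Cd3d* and *Cd8a*, which mark neutrophils, B cells and T cells, had 0 counts in all 6 libraries. Other genes of those marker lists were detected, with 1259 counts of *Ighm*, 278 of *Ebf1*, 260 of *Cd4* and 620 of *Mmp8* over the Veh libraries, and fibroblast and stromal markers summed to 713 to 1232 CPM in Veh.

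RSM changed 1732 of 14979 genes (11.6%), of which 757 were called higher (5.05%) and 975 lower (6.51%). The shares of 5.05% and 6.51% are the background for the counts of called genes in every list below. The median change of a called gene was 1.53 upward and -1.53 downward on the log2 scale, while the median over all genes tested was 0.0053. At least 4-fold changes were seen in 217 higher and 279 lower genes, at least 8-fold in 83 and 109, and at least 32-fold in 23 and 22. By FDR alone, 3065 genes were higher (20.5%) and 3094 lower (20.7%). All 3 RSM libraries lay above all 3 Veh libraries in 3860 genes (25.8%) and below them in 3855 (25.7%), and this separation held for 740 of the genes called higher and 961 of those called lower. Protein-coding genes were called higher in 5.13% and lower in 6.40% of 12666 tested. Of 317 lincRNAs, 6.62% were higher and 11.0% lower, and of 738 processed pseudogenes 4.47% were higher and 2.17% lower.

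**Figure D1:**
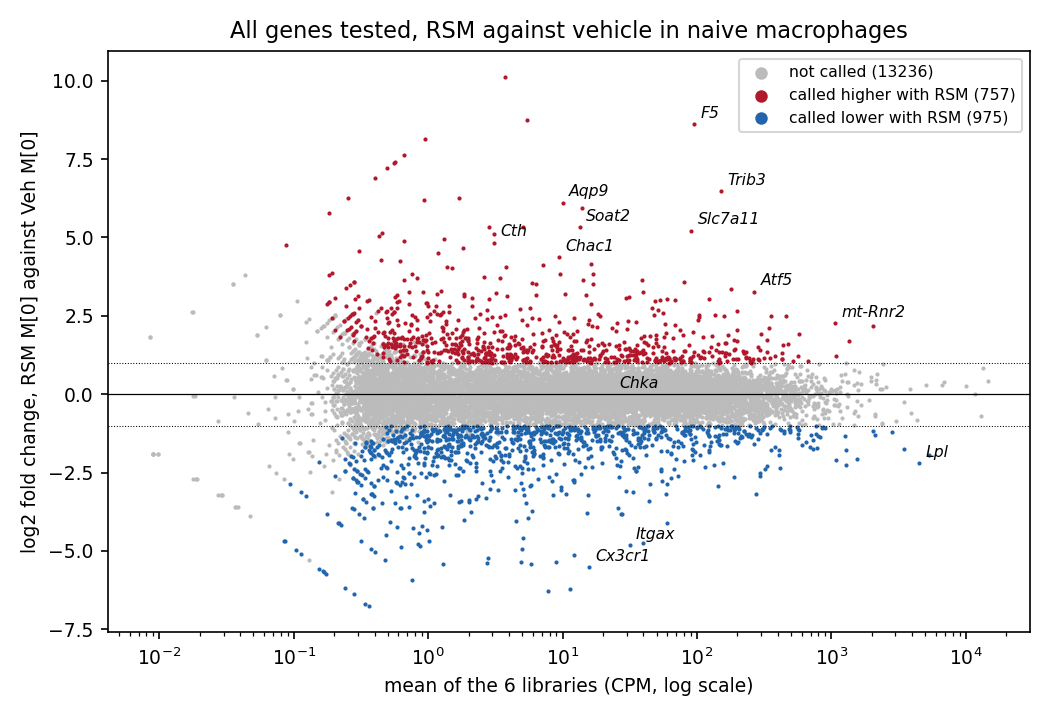
Log2 fold change of RSM M[0] against Veh M[0] (vertical axis) against the mean expression of the 6 libraries in CPM (horizontal axis, log scale), with 1 point per gene for 14968 genes; the 11 tested genes without counts in these libraries are not drawn. The 757 genes called higher are red and the 975 called lower are blue, and both spread over the whole range of expression, with *F5*, *Trib3* and *Slc7a11* far above the line and *Chka* at 0.

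The genes of the inhibited step did not follow the drug. *Chka*, on GRCm38 chromosome 19, 3851773 to 3894369, forward strand, encodes the alpha isoform that RSM targets, and it had 24.8, 21.5 and 24.7 CPM in Veh and 26.9, 21.6 and 22.3 in RSM. The groups overlapped and the log2 fold change was -0.0027 (SE 0.0925, FDR = 0.986). *Chkb*, the beta isoform, had few counts, with 42 counts over the 3 Veh and 28 over the 3 RSM libraries (-0.67, FDR = 0.309), and 58.7% of its transcript is near-identical to other annotated genes, so those counts are uncertain. Of 11 choline transporter genes listed, 3 passed the count filter and 0 were called, with 1 higher and 2 lower by FDR alone. The uptake carrier *Slc44a1* had 164, 161 and 149.6 CPM in Veh and 115, 124 and 112 in RSM, which do not overlap (-0.43, FDR = 0.00125). *Slc44a2* differed by -0.29 (FDR = 0.0203), and the choline and heme transporter *Flvcr1* by 0.44 (FDR = 0.00577).

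Downstream of choline kinase, 18 genes of phosphatidylcholine synthesis were tested, and 2 were called higher and 0 lower, with a median log2 fold change of 0.05. Over all genes tested 5.05% were higher and 6.51% lower, so nothing is read from these counts. *Pcyt1a*, the rate-controlling enzyme of the pathway, had 200.1, 209 and 193 CPM in Veh and 128, 148 and 132 in RSM. These values do not overlap and the decrease passed the FDR but not the 2-fold limit (-0.56, SE 0.0971, FDR = 0.000119). The final transferases *Chpt1* (-0.04, FDR = 0.774) and *Cept1* (0.27, FDR = 0.0726) passed neither limit. *Pemt*, which makes phosphatidylcholine from phosphatidylethanolamine without choline kinase, had 1.22, 0.999 and 1.07 CPM in Veh and 2.61, 1.62 and 2.31 in RSM. It was higher in every RSM library, at 0.99 (FDR = 0.00776), just under the 2-fold limit, and it was called higher under 3 of 15 alternatives (library size only, without RSM replicate 2 and without Veh replicate 1), at up to 1.14. Both called genes act on the glycerolipid side. *Gpat3*, which starts glycerolipid synthesis, rose from 0.663, 0.999 and 0.699 CPM to 7.9, 7.64 and 5.29 (3.13, FDR = 2.64e-08), although an antisense gene covers 30.0% of its exons. *Lpin3*, a phosphatidate phosphatase that yields diacylglycerol, rose from 0.553, 0.94 and 1.13 CPM to 4.75, 3.87 and 5.24 (2.39, FDR = 3.19e-06). Its paralogues went the other way, with 45.2, 38.4 and 39 CPM in Veh and 19.4, 21.5 and 20.7 in RSM for *Lpin1*. That gene was at -0.99 (FDR = 9.20e-07), inside the 2-fold limit although called lower under 7 of 15 alternatives, and *Lpin2* was at -0.75 (FDR = 3.33e-08). Of 6 genes of phosphatidylethanolamine and phosphatidylserine synthesis 0 were called in either direction, with changes of -0.39 for *Pcyt2* to 0.22 for *Selenoi*.

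Among 35 genes that break down or remodel phospholipids, 4 were called higher and 4 lower, with a median of -0.17. Over all genes tested 5.05% were higher and 6.51% lower, so nothing is read from these counts. *Pla2g7*, the secreted platelet-activating factor acetylhydrolase, had 48.4, 73.4 and 42.9 CPM in Veh and 318, 406 and 306 in RSM. It was higher in every RSM library (2.65, FDR = 4.05e-08). *Pla2g4a*, the cytosolic phospholipase that frees arachidonate, rose from 19.1, 20.6 and 18.9 CPM to 65.5, 57.8 and 60.8 (1.65, FDR = 6.00e-12). *Chdh*, choline dehydrogenase, which oxidizes choline toward betaine, had 0 counts in the Veh libraries and 1.01, 1.46 and 1.49 CPM (76 counts) in RSM. Against a floor of 3 counts over the Veh group it was at least 23.7-fold higher. The enzymes that fell included *Enpp2* (autotaxin, which releases lysophosphatidate from lysophosphatidylcholine), from 22.8, 11.2 and 17.8 CPM to 3.04, 1.57 and 2 (-2.97, FDR = 2.88e-06). The neutral sphingomyelinase *Smpd3* (-2.35, FDR = 2.35e-05), the lysosomal phospholipase *Pla2g15* (-1.56, FDR = 2.39e-12) and the lysophosphatidylcholine acyltransferase *Lpcat1* (-1.10, FDR = 1.94e-10) fell as well.

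Among lists with at least 10 tested members, the integrated stress response had the largest share of genes called higher, 14 of 25 against 5.05% of all genes, with 0 lower and a median of 1.24. *Atf4* went from 154 ± 2.21 to 514 ± 24.7 CPM (SD, n = 3; 1.74, FDR = 5.05e-14). *Atf5*, an ATF4-related factor of the mitochondrial stress response (chromosome 7, 44812256 to 44816658, reverse strand), had 49.4, 46 and 54.2 CPM in Veh and 465, 496 and 487 in RSM. Its change of 3.27 (SE 0.096, FDR = 3.09e-14) and that of *Trib3*, a pseudokinase that dampens ATF4, were among the 5 genes with the lowest FDR of all. *Trib3* had 2.49, 3.7 and 3.76 CPM in Veh and 281, 310.0 and 303 in RSM, and no RSM library came near the Veh range (6.49, FDR = 2.65e-17). *Ddit3* (CHOP, a pro-apoptotic factor) rose from 14.5, 16.3 and 15.3 CPM to 115, 129.9 and 122 (2.99, FDR = 4.41e-14). *Chac1*, which degrades glutathione, rose from 0.995, 0.764 and 0.807 CPM to 15.9, 17.1 and 20.7 (4.38, FDR = 2.10e-11). The stress cytokine *Gdf15* rose from 13.9, 13.6 and 13.9 CPM to 85, 87.9 and 93 (2.68, FDR = 1.05e-09). All of these were higher in every RSM library. The eIF2α kinases themselves (*Eif2ak1* to *Eif2ak4*) were not called, with changes of -0.54 for *Eif2ak2* to -0.07 for *Eif2ak1*, and *Atf3*, another stress factor, was at -0.62 (FDR = 2.06e-06).

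Promoters of 10727 tested genes could be read from the RefSeq table (GRCm38.p6, 250 bases before the start), and the C/EBP-ATF response element TGATGNAAT, the composite site bound by ATF4 with C/EBP factors, was searched on both strands. It was present in 57 of them (0.531%), in 8 of 544 promoters of genes called higher (1.47%) and in 5 of 665 of genes called lower (0.752%). In the lists of stress response, amino acid synthesis, amino acid transport and cytosolic tRNA synthetase genes, 4 of 36 promoters of genes called higher held it (11.1%). These 4 windows are shown because they carry that count, and each has the element in capitals with 25 flanking bases where the searched stretch extends so far. Those of *Pycr1* (chr11:120643818-120643876, reverse strand), *Nupr1* (chr7:126625548-126625606, reverse strand) and *Aars* (chr8:111033704-111033762, forward strand) lie 103, 111 and 113 bases before the start, and that of *Gars* (chr6:55037945-55038000, forward strand) lies 31 bases before it.
Pycr1: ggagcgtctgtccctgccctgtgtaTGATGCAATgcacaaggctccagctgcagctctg
Nupr1: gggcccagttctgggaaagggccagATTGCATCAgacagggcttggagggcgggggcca
Aars: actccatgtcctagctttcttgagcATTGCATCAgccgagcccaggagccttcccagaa
Gars: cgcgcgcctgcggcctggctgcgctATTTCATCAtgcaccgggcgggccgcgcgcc

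Of these, *Pycr1* carries the element in the sense of transcription and the other three on the opposite strand. The stress regulator *Nupr1* went from 5.7 ± 0.534 to 32.4 ± 3.82 CPM (2.50), and *Pycr1*, a proline synthesis enzyme, from 2.23 ± 0.687 to 7.01 ± 0.493 CPM (1.64). A match is only a run of letters, and the promoters of *Trib3* and *Chac1* in this table hold none, which says nothing of other sites or factors.

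Genes for making amino acids and one-carbon units rose in 12 of 23 tested, with 0 lower and a median of 1.08. *Cth*, cystathionine gamma-lyase (chromosome 3, 157894248 to 157925077, reverse strand), which makes cysteine, had 0.221, 0.117 and 0.269 CPM in Veh and 6.03, 5.39 and 6.62 in RSM. This is a change from near the detection limit to clear expression in every RSM library (4.83, SE 0.298, FDR = 2.44e-10). The mitochondrial folate enzyme *Aldh1l2* rose from 2.99, 1.88 and 3.23 CPM to 31.5, 28.8 and 32 (3.50, FDR = 1.06e-09). Asparagine synthetase *Asns* rose from 36.8, 27.1 and 31.5 CPM to 188, 170.4 and 166 (2.46, FDR = 1.42e-12). The folate enzyme *Mthfd2* rose from 37.1, 30.4 and 32.8 CPM to 185, 165 and 163 (2.36, FDR = 3.21e-14). *Phgdh*, the entry to serine synthesis, rose from 17.6, 10.1 and 20.2 CPM to 99.1, 89.4 and 99.2 (2.58, FDR = 6.22e-10), with 84.3% of its transcript near-identical to another annotated gene. No RSM library of these genes reached down to a Veh library. *Aldh18a1*, which opens proline synthesis, rose by 1.86 (FDR = 1.94e-10).

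Amino acid carriers followed in 9 of 22 tested genes, with 0 lower and a median of 0.64. *Slc7a11*, the cystine importer of system xc- (chromosome 3, 49892526 to 50443614, reverse strand), had 4.42, 5.87 and 4.03 CPM in Veh and 169, 200.4 and 163 in RSM, a 37.2-fold difference. Every RSM library was above every Veh library (5.22, SE 0.272, FDR = 2.31e-11). The large neutral amino acid carrier *Slc7a5* rose from 12.9, 11 and 15.1 CPM to 113, 97.8 and 106 (3.02, FDR = 5.90e-12). *Slc1a4*, which carries serine and alanine, rose by 2.56 and the glycine carrier *Slc6a9* by 2.75, the latter with 30.2% of its exons overlapped by an antisense gene. The cationic carrier *Slc7a1* rose by 1.99 (FDR = 2.03e-12). Cytosolic aminoacyl-tRNA synthetases, which charge tRNAs for protein synthesis, rose in 8 of 21, with 0 lower and a median of 0.90. The alanyl enzyme *Aars* had 126, 121 and 130.1 CPM in Veh and 480.4, 466 and 474 in RSM, with no overlap (1.91, FDR = 3.09e-14). The seryl enzyme *Sars* rose by 1.71, *Eprs* (glutamyl-prolyl) by 1.5 and *Gars* (glycyl) by 1.23. By contrast, 0 of 17 mitochondrial synthetases were called in either direction, with a median of 0.16 and FDR alone passing in 6 higher and 1 lower.

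In the ER, 2 of 29 chaperone and degradation genes were called higher and 1 lower, with a median of 0.05, beside 5.05% higher and 6.51% lower over all genes. *Ern1* (IRE1α, an ER stress sensor) rose by 1.73 and *Herpud1*, which aids ER-associated degradation, by 1.12, whereas the ER cochaperone *Sdf2l1* fell from 50.4, 72.8 and 70.7 CPM to 25.8, 28.3 and 34.2 (-1.13, FDR = 6.18e-06). The main ER chaperone *Hspa5* was at -0.03 (FDR = 0.835). In mitochondria 2 of 19 chaperones and proteases were called higher and 0 lower, with a median of 0.40. The mitochondrial calls were *Hspa9* (mortalin, the mitochondrial HSP70), which had 257, 238 and 236 CPM in Veh and 947, 927 and 868 in RSM (1.91, FDR = 7.27e-14), and the matrix protease *Lonp1* (1.2, FDR = 2.03e-10). Neither gene overlapped between the groups.

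**Figure D2:**
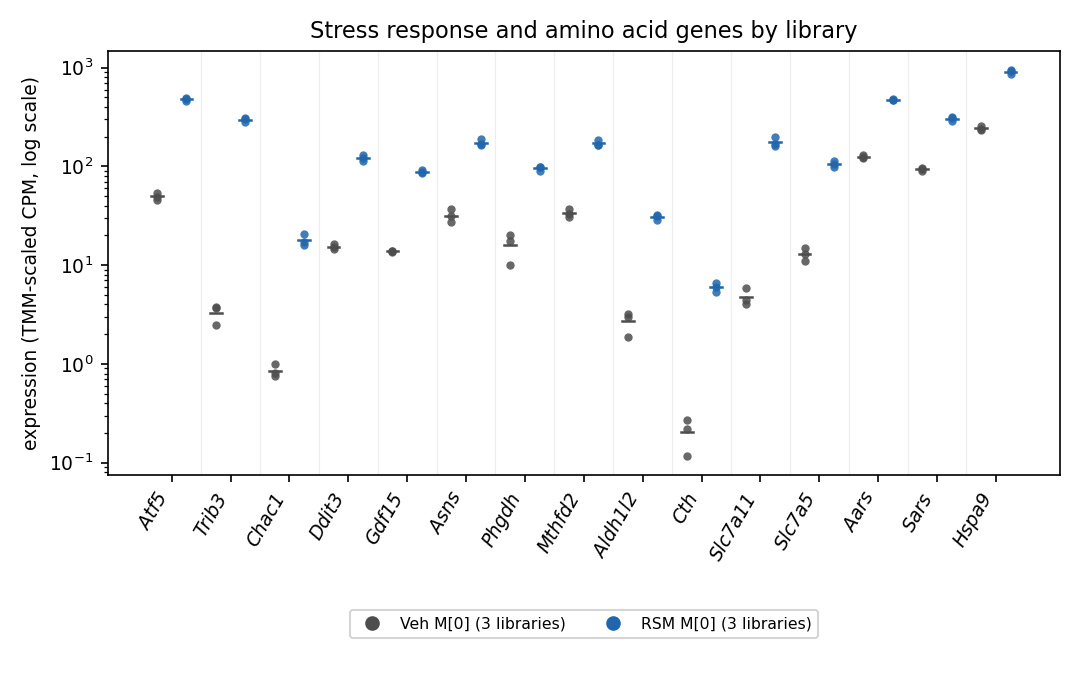
Expression of 15 stress response and amino acid genes in each library (points, TMM-scaled CPM, log scale) with the mean of each group (short line), Veh M[0] in grey and RSM M[0] in blue. In all 15 genes, the 3 RSM points sit above the 3 Veh points, from 281 to 310 CPM against 2.49 to 3.76 for *Trib3*.

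**Figure D3:**
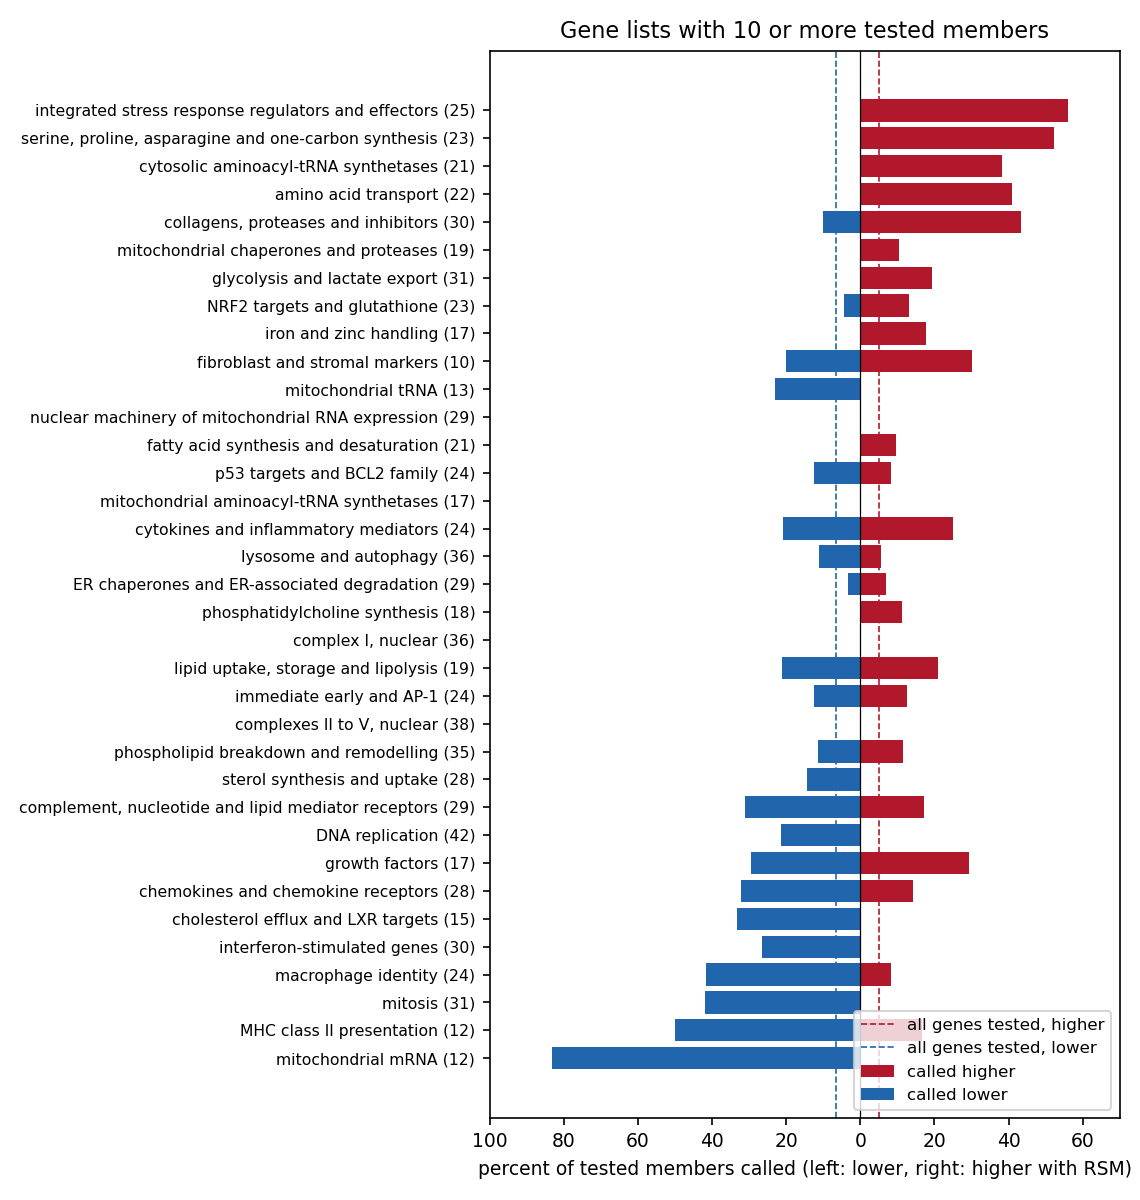
Percent of tested members called higher (red, right) or lower (blue, left) with RSM for the 35 lists with at least 10 tested members, the number tested in parentheses, ordered by median log2 fold change. Dashed lines mark the share of all genes tested, 5.05% higher and 6.51% lower; the stress response list stands at the top with 14 of 25 higher and mitochondrial mRNAs at the bottom with 10 of 12 lower.

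Transcripts of the mitochondrial chromosome were lower as a whole. They took 1.68 to 2.03% of the counts in Veh and 0.709 to 0.814% in RSM. Of 12 mRNAs tested 10 were called lower and 0 higher, with a median of -1.69, while both ribosomal RNAs rose. *mt-Nd5*, a subunit of complex I, had 2355, 2047 and 1931 CPM in Veh and 432, 499.7 and 394 in RSM, and *mt-Nd6* on the other strand had 779, 690.5 and 602 and 141, 150.3 and 114. The groups lay far apart in both (-2.26, FDR = 6.45e-10, and -2.36, FDR = 4.08e-09). *mt-Cytb* of complex III changed by -2.08 and *mt-Co1* of complex IV by -1.93, and the smallest called decrease was -1.27 for *mt-Nd2*. *mt-Nd3* (0.29, FDR = 0.393) and *mt-Nd4l* (-0.73, FDR = 0.045) were not called. The 12S rRNA *mt-Rnr1* had 149.7, 151 and 108 CPM in Veh and 912, 680.0 and 734 in RSM. The 16S rRNA *mt-Rnr2* had 390.5, 383 and 329 and 2002, 1569 and 1698. Both rRNAs were higher in every RSM library (2.51, FDR = 6.72e-09, and 2.26, FDR = 1.55e-09), and they were read from libraries of polyadenylated RNA. For *mt-Co2*, *mt-Co3*, *mt-Atp6*, *mt-Nd3* and *mt-Nd4l*, nearly the whole transcript has a near-identical copy elsewhere in the annotation, so their low counts (2.35 to 15.7 CPM in Veh) are uncertain. Such a copy also exists for 63.6% of the *mt-Nd4* transcript and 31.3% of that of *mt-Co1*, so these values are less certain too. Of 13 mitochondrial tRNAs, 3 were called lower and 0 higher, and 1 was lower without RSM replicate 3. Without Veh replicate 1, *mt-Tn* lost its call.

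Of 36 nuclear subunits of complex I, 0 were called, with changes of -0.36 to 0.40, and of 38 subunits of complexes II to V, 0 were called, with changes of -0.79 to 0.88. At an FDR under 0.05 alone, 2 complex I genes were higher and 0 lower, and 3 and 8 genes of the other complexes were higher and lower. The machinery that transcribes and processes mitochondrial RNA had 0 called of 29 and a median of 0.22. *Lrpprc*, which stabilizes mitochondrial mRNAs, was at 0.44 (FDR = 7.19e-06) and *Tfam*, the packaging and transcription factor, at 0.02 (FDR = 0.907). *Cox6a2*, a heart and muscle isoform of a complex IV subunit that was chosen here for its size of change, had 0.111, 0.646 and 0.592 CPM in Veh and 27.3, 27.1 and 28.3 in RSM. It rose from near the detection limit (5.92, FDR = 9.14e-12).

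**Figure D4:**
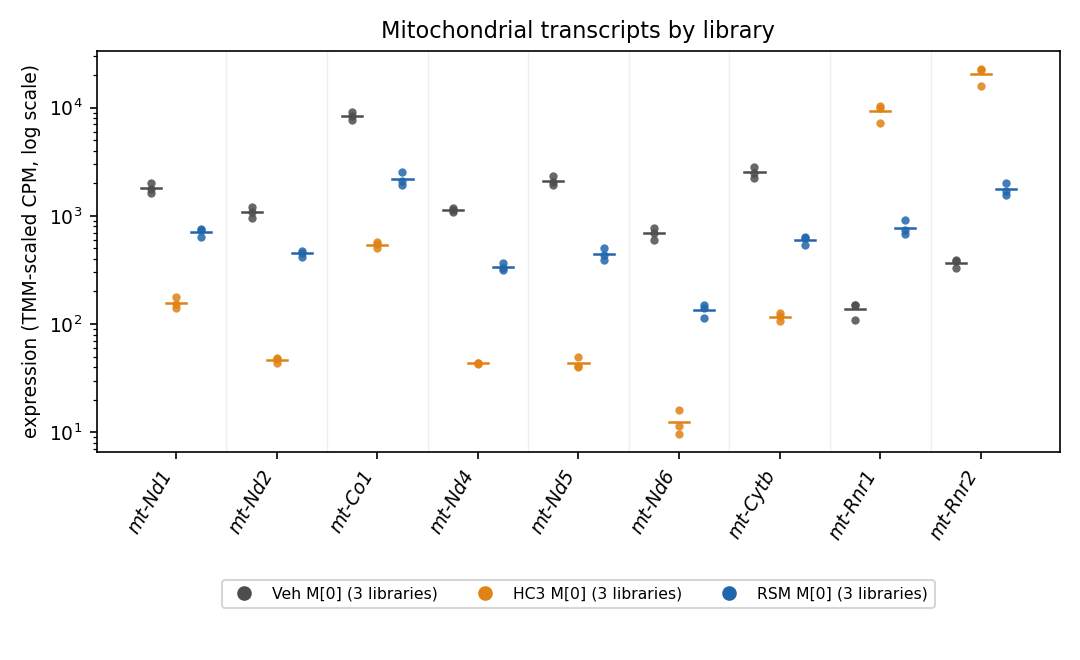
Expression of 9 mitochondrial transcripts in each library (points, TMM-scaled CPM, log scale) with group means (short lines) for Veh M[0] (grey), HC3 M[0] (orange) and RSM M[0] (blue). For the 7 mRNAs RSM sits between Veh and HC3 below vehicle, and for the 2 rRNAs it sits between them above vehicle.

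Glycolysis and lactate export rose in 6 of 31 genes, with 0 called lower and a median of 0.39. The lactate exporter *Slc16a3* (MCT4) had 43.3, 50.4 and 53.3 CPM in Veh and 152, 191 and 179.7 in RSM, with no overlap (1.83, FDR = 5.88e-10). The glucose importer *Slc2a1* (GLUT1) rose by 1.58, hexokinase 2 (*Hk2*) by 1.39 and enolase (*Eno1*) by 1.22. The counts of *Eno1* and *Pgam1* are shared with near-identical copies over 85.6% and 43.1% of their transcripts. Of 23 NRF2 targets and glutathione genes 3 rose and 1 fell, with a median of 0.31, beside 5.05% higher and 6.51% lower over all genes. *Gclm*, the regulatory subunit of glutathione synthesis, had 131, 126 and 129 CPM in Veh and 513, 603 and 563 in RSM (2.12, FDR = 5.52e-12), and *Nqo1* rose by 1.66. *Gpx1*, the main glutathione peroxidase, went down (-1.12, FDR = 4.66e-10). In the lysosome and autophagy list 2 of 36 rose and 4 fell, with a median of 0.13, beside 5.05% and 6.51% of all genes, so nothing is read from these counts. The autophagy receptor *Sqstm1* (p62) rose from 589, 681 and 660.4 CPM to 1966, 2105 and 2132 (1.68), the bone protease *Ctsk* rose by 1.41, and the lysosomal regulator *Tfeb* (-1.09) and the proton pump subunits *Atp6v0a1* (-1.22) and *Atp6v0d2* (-1.83) fell. In iron and zinc handling 3 of 17 rose, among them the siderophore binder *Lcn2*, from 0.166, 0.294 and 0 CPM to 0.96, 0.889 and 1.03 (2.63, FDR = 0.000534).

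Genes of cholesterol efflux and LXR targets fell in 5 of 15, with 0 higher and a median of -0.55. *Cyp27a1*, which makes 27-hydroxycholesterol, had 53.9, 68.1 and 56.4 CPM in Veh and 10.1, 10.4 and 12.4 in RSM (-2.44, FDR = 2.22e-11). Apolipoprotein E (*Apoe*) had 3133, 6483 and 6405 CPM in Veh and 1062, 2025 and 1670.0 in RSM, with the groups apart although replicate 1 was lowest in both (-1.75, FDR = 1.2e-05). The sterol exporter *Abcg1* fell by 1.5 on the log2 scale, and the phospholipid transfer protein *Pltp* fell by 1.61, with 19.3% of its exons overlapped by an antisense gene. In lipid uptake, storage and lipolysis, 4 of 19 rose and 4 fell. Lipoprotein lipase (*Lpl*), an abundant macrophage transcript, fell from 7529, 7348 and 7315 CPM to 1804, 1213 and 1813 (-2.20, FDR = 2.19e-10). The lipid regulator *Pparg* fell by 1.67. *Hilpda* and *G0s2*, inhibitors of the lipase ATGL, rose by 2.23 and 3.72, and the lipoprotein receptor *Vldlr* by 1.71. Of 28 sterol synthesis and uptake genes 0 were higher and 4 lower, with a median of -0.27, and 2 were lower when counts were scaled by library size alone. Among them, *Fdps*, which makes farnesyl diphosphate, fell by 2.12 (FDR = 0.000397), with 26.7% of its exons overlapped by a gene on the same strand. Fatty acid synthesis had 2 of 21 higher (*Elovl6*, 1.16, and *Fads3*, 1.27) and 0 lower, and 4 higher without Veh replicate 1. Over all genes tested 5.05% were higher and 6.51% lower, so nothing is read from the counts of the sterol synthesis and fatty acid lists. *Soat2*, which esterifies cholesterol and was chosen for its size of change, rose from 0.774, 0.235 and 0.914 CPM to 28.9, 25.8 and 24.2 (5.32, FDR = 2.41e-12).

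Genes that define macrophages were lower in 10 of 24, higher in 2 and had a median of -0.83. In bulk RNA, fewer cells of a type and less RNA per cell cannot be told apart. *Cx3cr1*, the fractalkine receptor, had 31.8, 29.5 and 30.9 CPM in Veh and 0.32, 1.05 and 0.616 in RSM. This was the largest decrease of the list (-5.52, SE 0.437, FDR = 7.39e-09). The complement gene *C1qa* fell from 407, 571 and 648 CPM to 101, 96 and 114 (-2.38), and *C1qb* (-2.11) and *C1qc* (-1.73) fell with it. The β-glucan receptor *Clec7a* (Dectin-1) fell by 2.18, and the related receptor *Clec4n* (Dectin-2) rose from 18.3, 27.2 and 16.1 CPM to 90.3, 112 and 86.1 (2.23, FDR = 5.50e-07). *Csf1r* went from 3967 ± 68 to 1720.0 ± 70.3 CPM (-1.21) and *Adgre1* from 2837 ± 221 to 1266 ± 31.4 CPM (-1.16), and both remained abundant. The changes of *Lyz2* (0.00, FDR = 0.986) and of the mannose receptor *Mrc1* (0.01, FDR = 0.975) did not pass the test.

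MHC class II genes fell in 6 of 12 and 2 costimulatory genes of the list rose. *H2-Eb1*, a class II beta chain (chromosome 17, 34305867 to 34316674, forward strand), had 55.7, 104 and 68.9 CPM in Veh and 2.56, 2.77 and 3.23 in RSM. *H2-Aa* had 91.5, 153 and 97.9 and 6.93, 6.96 and 5.96. The invariant chain *Cd74* had 402, 650.2 and 434 and 51.5, 57 and 54.6. In all 3 genes, replicate 2 was the highest Veh library and no RSM library came within the Veh range (-4.73, -4.11 and -3.19, FDR at most 5.21e-09). *Ciita*, the class II transactivator, fell from 7.41, 11.4 and 8.28 CPM to 1.23, 1.31 and 0.821 (-3.01, FDR = 2.33e-06). The costimulatory ligands moved up, *Cd86* from 10.4, 15.1 and 10.7 CPM to 71.2, 96.3 and 75.4 (2.75, FDR = 2.17e-07) and *Cd80* from 8.35, 8.52 and 6.29 to 19.7, 16.1 and 15 (1.13, FDR = 3.36e-06). *Itgax* (CD11c, chromosome 7, 128129547 to 128150657, forward strand), an integrin of dendritic cells and inflammatory macrophages, had 63, 62.7 and 57.2 CPM in Veh and 2.88, 2.2 and 1.39 in RSM. Its decrease was -4.82 (SE 0.178, FDR = 3.36e-13).

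Markers of other cell types were counted beside these groups. Of 10 dendritic cell markers 3 were tested, and *Itgax* and *Batf3* were lower, so the summed level went from 59.5 to 65.1 CPM in Veh to 2.26 to 4.22 CPM in RSM, nearly all of it from *Itgax*. The defining markers *Flt3*, *Xcr1*, *Clec9a* and *Siglech* had at most 17 counts over a group. Of 10 osteoclast markers 8 were tested, with 5 lower and 1 higher, and the summed level was 445 to 486 CPM in Veh and 236 to 245 CPM in RSM. The fusion receptor *Dcstamp* fell from 8.79, 15 and 10.5 CPM to 0.32, 0.366 and 0.103 (-5.41, FDR = 4.61e-08), and its partner *Ocstamp* from 18 counts to 0, at least 6.41-fold lower against a floor of 3 counts over the group. *Mmp9* fell by 2.39, while *Ctsk* was the gene that rose. Of 9 B cell markers 3 were tested, and *Ighm*, the IgM heavy chain, fell from 26.8, 23.1 and 20.5 CPM to 0.96, 0.418 and 0.616 (-5.13, FDR = 6.04e-10), where *Ms4a1* and *Pax5* were at 0 counts in both groups. The summed B cell level was 26.4 to 34.1 CPM in Veh and 7.90 to 13.4 CPM in RSM, and its fall came from *Ighm*. Another marker of the list, *Ebf1*, averaged 5.12 CPM in Veh and 9.3 in RSM and was not called (0.85, FDR = 0.0954). It made up most of the RSM sum. Of 12 neutrophil markers 3 were tested and 2 were higher, the protease *Mmp8* (10.8, 13.7 and 10.3 CPM in Veh, 49.2, 54.4 and 43.4 in RSM) and *S100a8*, with a summed level of 10.7 to 14 CPM in Veh and 43.9 to 56.3 CPM in RSM. *Ly6g*, *S100a9*, *Elane* and *Ngp* were at 0 counts in both. Of 10 T and NK cell markers 2 were tested, with *Cd4* lower (-3.30) and *Lck* higher, and *Cd3d*, *Cd3g* and *Cd8a* at 0 counts, and the summed level was 3.55 to 6.08 CPM in Veh and 1.10 to 1.69 CPM in RSM. The call for *Lck* was lost without Veh replicate 2 or RSM replicate 3 (FDR up to 0.0767), and that for *S100a8* without Veh replicate 2 or 3 or RSM replicate 1 or 2 (FDR up to 0.135). Of 10 mast cell and erythroid markers 1 was tested and 0 were called, with 0.166 to 0.529 CPM in Veh and 0.257 to 0.680 CPM in RSM. The part of other cells in any result was not tested.

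Cytokines and mediators moved both ways, with 6 of 24 higher, 5 lower and a median of 0.14, and with 3 lower without RSM replicate 2. *Ptgs2* (cyclooxygenase 2) had 6.19, 5.99 and 7.31 CPM in Veh and 57.7, 61.5 and 49.5 in RSM, with no overlap (3.11, FDR = 5.02e-11). *Il6* and *Il1a* also rose, but from low levels, with 0.0553, 0.176 and 0.269 CPM in Veh and 1.81, 1.2 and 1.95 in RSM for *Il6* (3.25, FDR = 5.79e-05). *Il1b* went the other way, from 6.47, 5.76 and 3.6 CPM to 0.587, 1.15 and 0.565 (-2.77, FDR = 0.000129). The anti-inflammatory *Il10* fell from 4.81, 4.35 and 4.14 CPM to 0.533, 0.628 and 0.667 (-2.85) and the receptor antagonist *Il1rn* fell by 1.84 on the log2 scale. Of 28 chemokines and their receptors 9 were lower and 4 higher, with a median of -0.53. Besides *Cx3cr1*, the receptors *Ccr3* (-3.82), *Ccr2* (-3.74) and *Cxcr3* (-2.90) fell, with *Ccr2*, the monocyte recruitment receptor, from 11.6, 12 and 9.41 CPM to 1.07, 0.575 and 0.821. *Ccr1* rose from 13.3, 17.1 and 11.8 CPM to 87.9, 80.8 and 76.3 (2.54, FDR = 7.21e-10), and the neutrophil-attracting ligands *Cxcl2* and *Cxcl3* rose by 2.13 and 4.02. *Cxcl2* had 8.68, 9.63 and 7.64 CPM in Veh and 40.1, 35.2 and 37.8 in RSM.

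Interferon-stimulated genes fell in 8 of 30, with 0 higher and a median of -0.67, and in 5 of 30 without Veh replicate 2. *Ifit3* had 8.46, 12 and 8.5 CPM in Veh and 2.45, 2.14 and 2.72 in RSM (-1.98, FDR = 0.00615), the GTPase *Gbp3* fell by 1.97 and the RNA sensor *Oas2* fell by 1.15. Receptors for complement fragments, nucleotides and lipid mediators fell in 9 of 29 and rose in 5, with a median of -0.41. Without RSM replicate 1, 2 of them rose, and without Veh replicate 2, 3 rose. *Gpr34*, a lysophosphatidylserine receptor, fell from 10.3, 8.87 and 10.1 CPM to 0.533, 0.418 and 0.257 (-4.58, FDR = 3.04e-08). *Gpr183*, the oxysterol receptor, fell by 2.19. The prostaglandin E2 receptors divided. *Ptger4* fell by 1.77, with 16.5% of its exons overlapped by an antisense gene, *Ptger2* rose from 4.37, 7.58 and 7.15 CPM to 48.3, 58.5 and 53 (3.07, FDR = 7.23e-12), and *Ptger3* rose by 3.50 (FDR = 9.99e-09). Each of these genes was apart in all 3 libraries a side.

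Of 31 mitosis genes 13 were called lower and 0 higher, 26 were lower by FDR alone, and the median was -0.90. *Nusap1*, a spindle protein, had 20.4, 15.5 and 14.8 CPM in Veh and 4.48, 2.41 and 3.9 in RSM (-2.23, FDR = 5.01e-07). *Mki67* (Ki-67) fell from 132, 99.2 and 108 CPM to 45.5, 30.6 and 38.8 (-1.56). Of 42 replication genes 9 were called lower and 0 higher, 28 were lower by FDR alone, and the median was -0.49. The helicase subunit *Mcm5* fell from 53.4, 49.8 and 56.1 CPM to 16.3, 14.7 and 18.4 (-1.69) and DNA ligase *Lig1* fell by 1.31. The cell cycle homology region TTTGAA was in 4 of 11 promoters of called mitosis genes (36.4%), 0 of 6 of called replication genes and 13% of all promoters, and the sterol regulatory core CACCCCAC was in 0 of 2 of called sterol genes and 3.34% of all, with both strands searched. In the p53 and BCL2 family list 2 of 24 rose and 3 fell, beside 5.05% and 6.51% of all genes, so nothing is read from these counts. The cell cycle inhibitor *Cdkn1a* (p21) had 116, 122 and 128 CPM in Veh and 316, 315 and 329 in RSM (1.39, FDR = 1.01e-12), and the mTORC1 inhibitor *Sesn1* fell from 213, 232 and 215 CPM to 41.8, 49.9 and 47.3 (-2.24, FDR = 2.14e-11). Of 24 immediate early genes 3 rose and 3 fell, beside the same shares of all genes. *Klf4* rose from 12.4, 10.3 and 12.7 CPM to 96.7, 87.7 and 99 (3.00, FDR = 4.41e-14), and *Egr2* fell from 21.3, 24.4 and 25 CPM to 3.79, 3.56 and 4.83 (-2.53, FDR = 7.23e-12).

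Transcripts of secreted factors moved in both directions. Of 17 growth factors 5 rose and 5 fell. *Vegfa*, the angiogenic factor, rose from 65.1, 88.2 and 78.8 CPM to 298, 346 and 319 (2.05, FDR = 1.31e-11), and *Inhba* (activin A) by 1.82. *Igf1* fell from 1203, 1185 and 1195 CPM to 474, 428 and 486 (-1.37, FDR = 3.88e-10), the mitogen *Pdgfb* fell by 2.31 and *Bmp2* fell by 2.56 on the log2 scale. Collagens, proteases and their inhibitors rose in 13 of 30 and fell in 3, with a median of 0.60. The urokinase gene *Plau* fell (-1.25). Thrombospondin 1 (*Thbs1*) rose from 803, 616 and 787 CPM to 3201, 3578 and 3207 (2.18), collagenase *Mmp13* by 1.88 and collagenase *Mmp8* by 2.08, while the macrophage elastase *Mmp12* fell from 672, 674 and 541 CPM to 187, 177 and 181 (-1.79, FDR = 1.48e-08). Of 10 fibroblast and stromal markers tested, 3 were higher and 2 lower, and their summed level was 713 to 1232 CPM in Veh and 1452 to 2171 CPM in RSM. *Acta2* had 224, 122 and 218 CPM in Veh and 598, 341 and 488 in RSM, with replicate 2 lowest in both groups, and *Dcn*, which marks fibroblasts, fell from 10.4, 8.69 and 6.34 CPM to 4, 1.88 and 3.08 (-1.51). The call for *Col1a1* (1.13) was lost without Veh replicate 2, and that for *Col3a1* (1.16) without Veh replicate 2 or RSM replicate 1, with changes down to 0.96 and 0.94. The call for *Fap*, 1 of the 2 lower markers, was lost without Veh replicate 1 or 3 or RSM replicate 2 or 3 (FDR up to 0.0965). The part of stromal cells in the collagen values was not tested.

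The largest increases included 3 overlapping or neighbouring genes of chromosome 1. *F5*, coagulation factor V (chromosome 1, 164151838 to 164220277, forward strand), had 0.221, 0.529 and 0.699 CPM in Veh and 169, 219.6 and 184 in RSM, a 389-fold difference (8.60, SE 0.28, FDR = 6.05e-14). The neighbouring *Selp* (P-selectin, chromosome 1, 164115264 to 164150026, forward strand) had 1 count over the 3 Veh libraries and 625 over RSM, a ratio of 585 with a counting interval of 105 to 23200 (95%, exact binomial). The noncoding gene *Gm16587* lies within *Selp* on the other strand and had 0 and 428 counts, at least 134-fold higher against 3 counts over the group. Of the *Gm16587* transcript 22.1% matches *Selp*, and reads of that stretch cannot be divided between them without strand. The water and glycerol channel *Aqp9* rose from 0.332, 0.294 and 0.215 CPM to 19.4, 23.2 and 16.6 (6.11, FDR = 2.22e-11). *Avil* (advillin, an actin-binding protein), *Sh2d6* and the scaffold *Dlg2* rose from under 0.4 CPM in every Veh library, by 5.34, 5.32 and 5.12. *Cyp2ab1* had 2 counts in Veh and 193 in RSM, a ratio of 90.4 with a counting interval of 24.7 to 752.

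Among the largest decreases, the adhesion receptor *Adgre4* had 23.1, 23.9 and 20.3 CPM in Veh and 0.213, 0.366 and 0.308 in RSM (-6.21, FDR = 1.25e-09). This is a 74-fold decrease to a few counts per library. The activating receptor *Cd300e* fell from 13.8, 8.46 and 6.61 CPM to 0.48, 0 and 0.205 (-5.37), the organic anion carrier *Slco2b1* from 17.5, 15.6 and 19.3 CPM to 0.32, 0.209 and 0.719 (-5.36), and the C-type lectin *Clec4b1* from 8.35, 10.6 and 10.3 CPM to 0.213, 0.471 and 0.257 (-4.93). *Rtn1*, a reticulon of the ER, and the microtubule minus-end protein *Camsap3* changed by -5.22 and -5.39. In each of these genes no RSM library reached 1 CPM.

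RSM and HC3 block neighbouring steps, and both were compared with the same Veh libraries, so they were set against each other directly. RSM was higher than HC3 in 215 genes (1.44%) and lower in 241 (1.61%) of 14979. Of the 1732 genes called for RSM against Veh, 256 were also called between the inhibitors (14.8%). Among these, 75 were called higher for RSM and lay above HC3, and 133 were called lower and lay below HC3. In 11 called higher HC3 was higher still, and in 37 called lower HC3 was lower still. Both comparisons use the same RSM libraries, which favours an overlap in the same direction, so nothing is read from these counts. The doses differ (5 µM against 250 µM), so the values are given side by side and no ranking of potency is made.

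Cysteine and folate genes were among those higher with RSM. *Cth* had 6.03, 5.39 and 6.62 CPM with RSM, 0.589, 0.41 and 0.894 with HC3 and 0.221, 0.117 and 0.269 with Veh (RSM minus HC3 3.24, FDR = 4.73e-08). *Aldh1l2* had 7.87, 6.4 and 7.31 CPM with HC3, far under its RSM values (2.10, FDR = 1.5e-06). *Slc7a11* had 63.5, 102 and 56.1 CPM with HC3 (1.26, FDR = 0.000351), whereas for *Trib3* the libraries of HC3 had 297, 319.8 and 329 CPM and the difference was -0.08 (FDR = 0.606). For some genes RSM and HC3 lay on opposite sides of Veh. The platelet chemokine *Pf4* had 64.5, 75.6 and 78.7 CPM in Veh, 308, 224 and 276 with RSM and 28.4, 29.2 and 38.4 with HC3 (3.07, FDR = 7.36e-10). Arachidonate 5-lipoxygenase (*Alox5*) had 1.44, 2.06 and 1.24 CPM in Veh, 4.54, 6.9 and 5.8 with RSM and 0.481, 0.768 and 0.526 with HC3 (3.26, FDR = 8.67e-07). In neither gene did any of the 3 groups overlap. *F5* had 50.5, 75.1 and 52.9 CPM with HC3 (1.68, FDR = 6.49e-07), *Pla2g7* 81.5, 135 and 79.2 (1.80, FDR = 2.07e-05) and *Ccr1* 21.4, 24.3 and 15.4 (2.0, FDR = 9.75e-08).

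Antigen presentation and lipid genes were among those lower with RSM. *Itgax* had 57, 50.9 and 43.5 CPM with HC3, just under its Veh values and far above those of RSM (-4.55, FDR = 8.59e-12). *H2-Eb1* had 22.6, 32.4 and 19.7 CPM with HC3 (-3.12, FDR = 1.33e-06) and *Cd74* 174, 273 and 174 (-1.93, FDR = 2.24e-06), which in both lie between Veh and RSM. *Lpl* had 6037, 4245 and 5192 CPM with HC3 (-1.68, FDR = 6.83e-08), and *Mmp12* had 731, 791 and 567, which overlaps Veh (-1.94, FDR = 5.35e-08). *Mamdc2*, an extracellular MAM-domain protein, had 25.2, 35.2 and 24.3 CPM in Veh, 20.9, 27.6 and 17.5 with HC3 and 1.07, 2.72 and 2.36 with RSM (-3.42, FDR = 7.37e-08), and the eosinophil and alveolar macrophage lectin *Siglecf* differed by -3.09 (FDR = 0.000395). For the mitochondrial transcripts, HC3 lay further from Veh than RSM did. *mt-Nd5* had 49.4, 39.8 and 41 CPM with HC3, far under its RSM values (3.35, FDR = 1.41e-10), and *mt-Rnr2* was above its RSM values in every HC3 library (-3.53, FDR = 1.41e-10).

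**Figure D5:**
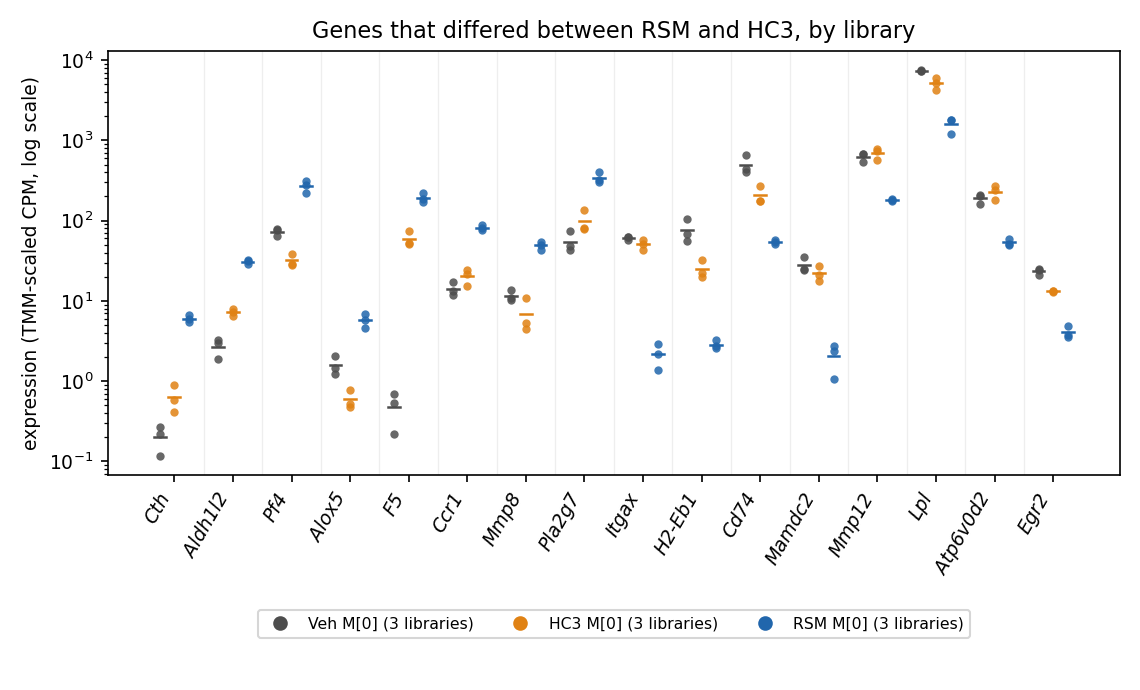
Expression of 16 genes called between RSM and HC3, in each M[0] library (points, TMM-scaled CPM, log scale) with group means (short lines), Veh grey, HC3 orange and RSM blue. In the first 8 genes RSM is the highest group, with *Pf4*, *Alox5* and *Mmp8* lower with HC3 than with Veh by group mean. In the last 8 RSM is the lowest, with *Itgax* at 2.15 CPM against 50.5 with HC3 and 61.0 with Veh.

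The effect of RSM was also compared between M[IL-4] and M[0] as an interaction. It was higher in M[IL-4] for 183 genes (1.22%) and lower for 138 (0.921%), and 164 of the 1732 genes called in M[0] were among them (9.47%). The interaction subtracts the M[0] change itself, which favours such an overlap, so nothing is read from the 164. *Slc7a11* had 11, 17.2 and 13.1 CPM in Veh M[IL-4] and 54.2, 64 and 58.4 in RSM M[IL-4], so its change was 2.10 there and 5.22 in M[0] (difference -3.12, FDR = 1.71e-05). *Cd86* had 2.15, 4.64 and 3.47 CPM in Veh M[IL-4] and 60.2, 110.3 and 76 in RSM M[IL-4], a change of 4.59 against 2.75 (difference 1.84, FDR = 0.0102). *Trib3* changed by 5.56 in M[IL-4] and by 6.49 in M[0], and its difference of -0.92 was inside the 2-fold limit (FDR = 0.00118).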

How the data were processed

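RNA sequencing of messenger RNA selected with poly-T beads was analysed for 6 M[0] libraries, with 12 further libraries of the series in the same fit. Per the labels and methods of the study, the authors used fastp for trimming and STAR (local mode, GRCm38) for alignment, kept mapping quality 40, left Picard-marked duplicates in, and deposited whole-number gene counts from featureCounts over exons. The annotation release and the strand setting are not given in the sources used here. Groups came from the sample titles.

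Counts were scaled by TMM and tested with edgeR 4.0.16 (quasi-likelihood, R 4.3.3) over 18 libraries with 1 coefficient per group, on the 14979 genes reaching 10 counts in 2 or more libraries. A gene was called at a 2-fold change with a Benjamini-Hochberg FDR under 0.05. Simulated counts for RSM against Veh in M[0] gave 198 of 200 genes changed by 2 on the log2 scale (99.0%) and 5 false calls among 14979 genes. The changed genes were drawn from those averaging at least 50 counts, and no replicate effect was simulated. The recovery says nothing of genes with fewer counts or of changes near 2-fold. Libraries of the same replicate number deviated together (residual r = 0.186, 0.258 and 0.127, against -0.203 to 0.0364 for other pairs). The labels name 3 individual mice but tie no replicate number to a mouse, so a pairing by number is inferred. The main fit holds no replicate block. Replicates of 1 group differed by more than counting noise, with a chi-square per gene of 6.39 to 13.0.

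Floors are 3 counts, and floors and intervals cover counting error only. Near-identical sequence means at least 98% identity over at least 100 bases between annotated transcripts (blastn 2.17.0), and overlaps were read from GENCODE M21 exons. Promoter sequences are from RefSeq on GRCm38.p6, and 10727 tested genes matched by symbol. The 41 gene lists and 3 mitochondrial ones, the members and the tests were chosen with earlier results of these data known. Genes named by rule are the 12 largest rises and 12 largest falls among non-overlapping genes whose higher group averaged 50 counts or more, the 5 lowest FDR, up to 6 called genes of each list with any called against its majority (its most abundant members where none was called), the choline, phosphatidylcholine, phosphatidylethanolamine and mitochondrial mRNA and rRNA genes, and the 8 largest differences from HC3 and from M[IL-4] in each direction. *Atf4*, *Nupr1*, *Pycr1*, *Csf1r*, *Adgre1*, *Lyz2*, *Mrc1*, *Cd68* and the bounds of lists were chosen after their values were seen. The rule also did not pick *Atf3*, *Ebf1*, *Eif2ak1*, *Eif2ak2*, *Hspa5*, *Tfam* and some markers of other cell types. Genes outside the rule were not followed singly under the alternatives. A few genes picked by the rule are not reported here. Alternatives were another scaling, filter, tool or set of libraries, a replicate block, and leaving out each library.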

Additional observations from a re-analysis of the deposited data

Results flagged for a closer look

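The effect of RSM differed between M[IL-4] and M[0] for 41 of the 215 named genes that were called in M[0]. The test was an interaction term of the edgeR fit, at an FDR under 0.05 and a difference of at least 2-fold. Over all genes tested, 1.22% had a positive and 0.921% a negative difference. The naming rule takes in the 8 largest differences in each direction, so nothing is read from the count of 41. Each difference below is the log2 fold change in M[IL-4] minus that in M[0]. Genes that fell in M[0] and moved up in M[IL-4] included *Bmp2*, with 14.9, 16.1 and 14.8 CPM in Veh M[0], 2.56, 2.09 and 3.08 in RSM M[0], 3.28, 4.7 and 5.21 in Veh M[IL-4] and 8.1, 7.64 and 8.41 in RSM M[IL-4] (difference 3.43, FDR = 7.24e-08). In both polarizations the groups were apart, in opposite senses. *Ms4a4a*, a membrane protein of the MS4A family, had 39.1, 54.2 and 39.9 CPM and 9.44, 10.0 and 7.96 in M[0] against 95.1, 145 and 125 and 218, 304 and 285 in M[IL-4] (difference 3.42, FDR = 3.47e-07). Here too the 3 RSM libraries were below vehicle in M[0] and above it in M[IL-4].

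Of 30 interferon-stimulated genes, 11 had a called positive difference and 0 a negative one, beside 1.22% and 0.921% of all genes. The list had fallen in M[0] and the difference subtracts that fall, which favours positive values, so nothing is read from these counts. The difference was 2.90 for *Ifit3*, 2.35 for *Oas2*, 1.96 for *Oasl2* and 3.03 for *Rtp4*, which is not in the list. In RSM M[IL-4], *Rtp4* had 9.47, 15.9 and 41.9 CPM, so replicate 3 stood well above the other two, and *Ifit3* had 1.22, 2.21 and 10.0 CPM with the same library highest. The nuclear receptor *Nr4a1* differed by 1.91.

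The difference was negative for 1 of 25 stress response genes, 6 of 23 of amino acid and one-carbon synthesis and 3 of 22 of amino acid transport, and positive for 0 of each. Over all genes tested it was negative for 0.921% and positive for 1.22%. These lists had risen in M[0] and the difference subtracts that rise, which favours negative values, so nothing is read from these counts. Among the genes of these lists the difference was -3.12 for *Slc7a11*, -1.90 for *Chac1*, -1.80 for *Phgdh*, -1.66 for *Cth*, -1.40 for *Mthfd2*, -1.39 for *Asns*, -1.21 for *Slc7a5* and -1.02 for *Slc7a1*. For *Asns* the Veh libraries were higher in M[IL-4] (85.7, 67 and 81 CPM against 36.8, 27.1 and 31.5 in M[0]), while the RSM libraries had 166, 159 and 164 CPM against 188, 170.4 and 166. Hexokinase *Hk2* differed by -1.18 and *Klf4* by -1.75.

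Among genes of surface proteins, positive differences were found for *Cd4* (3.17), *Cd300e* (3.10), *Pecam1* (2.81), *Tlr5* (2.78), *Slco2b1* (2.71), *Cd86* (1.84), *Gpr183* (1.76), *Clec7a* (1.56), *Cxcr3* (1.41), *Itgax* (1.2), *Ccr3* (1.15) and *Ptger4* (1.07). *Itgax* had 1021, 1273 and 1031 CPM in Veh M[IL-4] and 87, 99.7 and 84 in RSM M[IL-4], so it was far lower with RSM in both polarizations. Negative differences were found for *Cd24a* (-2.43), *Ptger3* (-2.02), the urokinase receptor *Plaur* (-1.88), *Ccr1* (-1.59) and *Ptger2* (-1.40). *Plaur* rose in M[0] by 1.15 and was at -0.73 in M[IL-4]. The chemokines *Cxcl2* and *Pf4* differed by 2.06 and 1.02, and the proton pump subunit *Atp6v0d2* by 1.10. The proteases *Adamts5* and *Mmp8* differed by -2.28 and -1.76. *Selp* (-4.92) and *Cyp2ab1* (-3.95) had at most 2 counts over the Veh M[0] libraries, so their fitted differences depend on the prior count. What sets these differences was not tested.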

How the results depend on the processing

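The counts of called genes kept within 1.5 times under 15 alternatives, with 666 to 825 genes higher and 890 to 1027 lower. A replicate block within each polarization gave 803 higher and 1022 lower, and one with only the 6 compared libraries gave 788 and 1027. By FDR alone these blocks gave 7626 and 7553 genes in either direction, against 6159 without a block. No count changed by over 1.5 times with a block. Scaling by library size alone moved the median of all genes to 0.0619 and gave 825 higher and 890 lower. DESeq2 gave 730 and 946. Genes that differed between RSM and HC3 numbered 456 and ranged over 343 (without RSM replicate 2) to 587, and those whose effect differed in M[IL-4] numbered 321 and ranged over 271 (without Veh replicate 2) to 416. Of 215 called genes among those named, 189 were called under every alternative and 0 changed sign. Of 254 named genes, 8 that were not called changed sign. With library size only, *Chka* was at 0.0533, *Chpt1* at 0.0153 and *Gpam* at 0.0545. *Gpam* was at 0.0035 with the replicate block within each polarization and at 0.0025 with no count filter. Without 1 library, *Chka* ranged from -0.1137 to 0.0411 (0.0274, 0.0286 and 0.0329 between), *Gpam* from -0.0845 to 0.1262 (0.048 between), *Chpt1* from -0.1431 to 0.024, *Polg* from -0.1689 to 0.045, *Agpat2* from -0.0141 to 0.1162, *Gabpa* from -0.0533 to 0.0722, *Pcyt1b* from -0.0581 to 0.5391 and *Ptdss2* from -0.0098 to 0.1067. Depth limits genes near 3 counts a library, 0.154 to 0.176 CPM. The cause of these shifts was not tested.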
